A study of Homo sapiens with 6 samples.

Results

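Parvalbumin-positive interneurons are fast-spiking inhibitory neurons of the brain, and 8 genes that mark or equip them were examined here in SH-SY5Y cells given PGC-1a. The genes were PVALB, SYT2, CPLX1, NEFH, LGI2, KCNC1, KCNC2 and KCNC4. They were found by matching the Ensembl identifiers of the deposited count table, with the version dropped, to these symbols in GENCODE 29, and all 8 were among its 58096 gene rows. They were chosen by their known link to PGC-1a in interneurons and with their counts and fold changes in this comparison already known, so those values are a description and carry no test. SH-SY5Y is an established human neuroblastoma line, which the labels call a neuronal progenitor. The cells were grown in 10 cm plates in DMEM with 10% fetal bovine serum and 1% P/S until 80% confluent, and received 2 ul of an adenovirus for 48 h. The virus carried GFP in the 3 libraries of the control group, named GFP here, and PGC-1a in the 3 libraries of the group named PGC1A. Every library therefore came from infected cells, and the labels give no titre or promoter for either virus and do not tell separate cultures from repeat libraries. P-values thus reflect the scatter among these 6 libraries alone, and that scatter may be technical.

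PGC-1a, encoded by PPARGC1A, is a coactivator that is recruited to DNA by transcription factors, among them the estrogen-related receptors (ERRs), and is best known for raising the expression of mitochondrial genes. In the rodent forebrain it is concentrated in GABA-releasing interneurons, and in mice that lack it the expression of Pvalb, Syt2, Cplx1 and Nefh in cortex is reduced. Parvalbumin buffers calcium, synaptotagmin 2 and complexin 1 act in fast calcium-triggered transmitter release, the heavy neurofilament subunit supports large axons, and Kv3 potassium channels, encoded by the KCNC genes, repolarise the membrane quickly enough for rapid firing. LGI2 encodes a secreted leucine-rich repeat protein expressed in neurons.

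RefSeq start-site windows (build GRCh38.p14), which run from 250 bases before a start to 50 bases after it, were found for 6 of the 8 genes, as 9 windows in all. The 3 sequences below are the 250 bases before the upstream start of PVALB, which had the largest rise of the 8, and before the starts of the 2 members whose windows hold AAGGTCA, the core element bound by ERRs and some other nuclear receptors. All 3 lie on the minus strand and are written 5′ to 3′, and capitals mark this core element, with its extension where present.
PVALB (chr22:36819500-36819749): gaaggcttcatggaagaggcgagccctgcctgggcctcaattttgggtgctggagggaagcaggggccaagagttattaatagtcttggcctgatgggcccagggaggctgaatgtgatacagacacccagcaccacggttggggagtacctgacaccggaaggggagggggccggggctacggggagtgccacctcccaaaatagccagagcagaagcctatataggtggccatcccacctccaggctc
SYT2 (chr1:202710455-202710704): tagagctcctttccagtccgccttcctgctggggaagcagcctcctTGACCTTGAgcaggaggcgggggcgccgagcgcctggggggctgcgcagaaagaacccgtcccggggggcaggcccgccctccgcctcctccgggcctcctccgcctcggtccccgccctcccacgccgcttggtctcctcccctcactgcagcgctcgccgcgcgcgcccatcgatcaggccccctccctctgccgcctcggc
LGI2 (chr4:25030947-25031196): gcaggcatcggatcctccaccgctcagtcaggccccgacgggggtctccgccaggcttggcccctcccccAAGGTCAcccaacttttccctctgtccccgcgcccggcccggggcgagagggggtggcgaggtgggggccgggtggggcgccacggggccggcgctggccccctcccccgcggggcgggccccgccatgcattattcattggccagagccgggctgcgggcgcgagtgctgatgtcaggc
The SYT2 window holds TGACCTTGA, which on the other strand reads TCAAGGTCA, a match to the extended element TNAAGGTCA known for ERRs, at bases −204 to −196 from the start. The LGI2 window holds AAGGTCA at −180 to −174 without the extension. Searched on both strands, AAGGTCA was present in 3.92% and TNAAGGTCA in 0.956% of 34943 windows of 300 bases in the RefSeq table, and every TNAAGGTCA is also an AAGGTCA. Neither was present in the other 7 windows, which are those of both PVALB starts, the second SYT2 start, both KCNC1 starts, KCNC2 and KCNC4. TGACGTCA (the cAMP response element, present in 1.84% of all windows) was in none of the 9, and CCGGAAG (GABPA, 10.2%) was in the upstream PVALB window only, at −94 to −88. These matches are letters in a window. The counts are per gene and do not show which start was used.

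Depth was similar in all libraries, with 24988743 to 31762496 counts assigned to genes. PPARGC1A rose from 3.75 ± 0.233 to 4042 ± 61.9 CPM (counts divided by TMM-scaled library size, SD, n = 3; log2 fold change 10.07, edgeR quasi-likelihood adjusted p = 2.06e-70), so the libraries match their labels. Of 19343 genes tested, 83.0% were called at an adjusted p of 0.05, 40.9% as higher and 42.1% as lower in PGC1A. The groups did not overlap in 83.6% of them. Counts of genes below are to be read against these shares. Of the 8 genes, 6 passed the filter on low counts and all 6 were among the 40.9% called higher, from which nothing is read given how they were chosen. A lower level in these bulk samples cannot tell fewer cells of a type from less RNA per cell, and a higher level cannot tell the opposite.

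PVALB went from almost no reads to one of the more abundant transcripts per length. The gene (ENSG00000100362.12) lies on the minus strand of chromosome 22, at 36800684 to 36819479 of GRCh38. GFP gave 1, 1 and 3 counts, and PGC1A gave 6586, 6390 and 5727. All 3 GFP values were at or under a floor of 3 counts, and the groups were far apart. Its mean level was 0.050 ± 0.0298 CPM with GFP against 238 ± 11.7 CPM with PGC1A (SD, n = 3). The ratio of summed counts per depth was 4608, with a 95% counting interval of 1974 to 14190 that covers counting error only. Its fitted log2 fold change of 12.05 was the 5th largest rise among the genes tested. None of its exon bases lie in another annotated gene.

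The release genes SYT2 and CPLX1 were next. SYT2 (ENSG00000143858.11, minus strand of chromosome 1, 202590596 to 202710417) had 29, 43 and 33 counts in GFP against 2702, 2652 and 2629 in PGC1A. The 3 PGC1A libraries lay between 101 and 103 CPM and no GFP library exceeded 1.3 CPM. The means were 1.09 ± 0.191 and 102 ± 1.25 CPM (SD, n = 3), and the log2 fold change was 6.54 (SE 0.07). Of the exon bases of SYT2, 27.2% also lie in PPP1R12B on the opposite strand, which went from 29.8 ± 1.37 to 58.3 ± 0.409 CPM, and how reads were divided between them was not tested. CPLX1 (ENSG00000168993.14, minus strand of chromosome 4, 784957 to 826198) had 323, 360 and 408 counts in GFP and 5590, 5525 and 5232 in PGC1A. Its groups were well separated, at 11.3 ± 0.360 and 208 ± 2.57 CPM (log2 fold change 4.20, SE 0.04), and no other annotated gene shares its exons.

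NEFH was already well expressed in the control cells, at the 91.2nd percentile of the genes tested by CPM per kb of exon. It (ENSG00000100285.9, plus strand of chromosome 22, 29480230 to 29491390) had 2380, 2862 and 3141 counts in GFP and 20902, 19896 and 19447 in PGC1A. This corresponds to 86.5 ± 1.69 and 766 ± 13.3 CPM, a log2 fold change of 3.15 (SE 0.03), with a coefficient of variation between replicates of 1.95% in GFP and 1.74% in PGC1A. On the opposite strand AC000035.1 covers 8.80% of its exon bases and had 1 count over the 6 libraries.

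The 3 Kv3 channel genes among the 8 behaved differently from one another. KCNC1, which encodes Kv3.1 (ENSG00000129159.6, plus strand of chromosome 11, 17734774 to 17856804), had 223, 233 and 245 counts in GFP and 990, 1018 and 977 in PGC1A. Its level went from 7.29 ± 0.578 to 38.0 ± 0.870 CPM (log2 fold change 2.39, SE 0.06), with no overlap. KCNC4, which encodes Kv3.4 (ENSG00000116396.14, plus strand of chromosome 1, 110211343 to 110283100), had 228, 246 and 277 counts in GFP and 330, 346 and 304 in PGC1A. Its groups were close but separate, at 7.78 ± 0.352 and 12.5 ± 0.625 CPM, and its log2 fold change of 0.68 (SE 0.07) was 0.35 with total counts as the scaling. KCNC2, which encodes Kv3.2 (ENSG00000166006.12, minus strand of chromosome 12, 75040077 to 75209868), had 0 counts in all 6 libraries. This allows a level of up to 0.0842 to 0.118 CPM per library at a floor of 3 counts. Of the exon bases of KCNC2, 35.5% also lie in AC073525.1 on the opposite strand, and how reads there were counted is not known.

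LGI2 did not follow the other genes. It (ENSG00000153012.11, minus strand of chromosome 4, 24998847 to 25030879) had 0, 1 and 1 counts in GFP and 1, 0 and 0 in PGC1A. Both groups were under the floor, so no fold change is given. The SYT2 and LGI2 windows shown above hold AAGGTCA, with the extension in SYT2 only, and its part in the levels of these genes was not tested. For LGI2 and KCNC2 no difference between the groups was detectable at this depth.

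**Figure D1:**
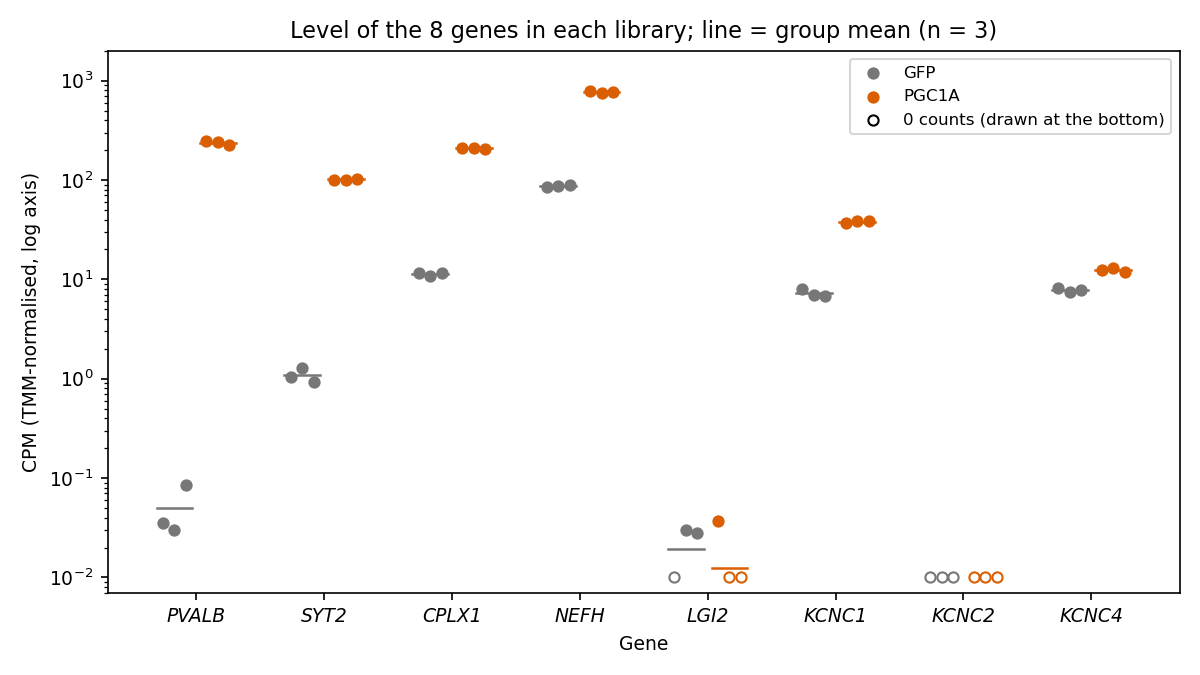
CPM of each gene in each library on a log axis, with GFP in grey, PGC1A in orange, a line at each group mean (n = 3) and open symbols for 0 counts. PVALB, SYT2, CPLX1, NEFH, KCNC1 and KCNC4 lie higher in all 3 PGC1A libraries, while LGI2 and KCNC2 stay at 0 or 1 count.

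Among all genes tested, the rises of the 6 genes ranked 5th (PVALB), 164th (SYT2), 410th (CPLX1), 702nd (NEFH), 1177th (KCNC1) and 4991st (KCNC4). A fitted rise of at least 2-fold was seen in 19.0% of all genes tested and of at least 16-fold in 2.33%. PVALB, SYT2 and CPLX1 were above the second bound, NEFH and KCNC1 between the bounds and KCNC4 below the first.

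**Figure D2:**
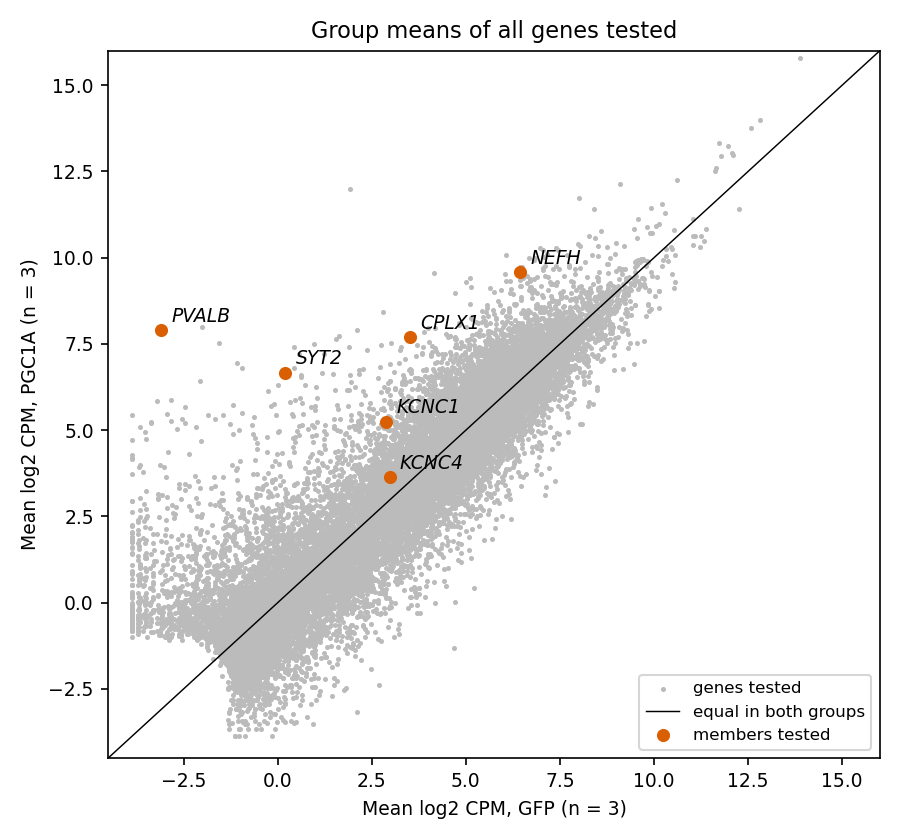
Mean log2 CPM (prior count 2) of each of the 19343 genes tested in PGC1A against GFP, with the 6 tested members in orange and a line of equal level. PVALB and SYT2 sit at the upper left edge of the cloud and KCNC4 just above the line.

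Levels were compared between genes per kilobase of merged exons. In PGC1A, PVALB stood highest at 226 ± 11.1 CPM per kb, followed by NEFH at 203 ± 3.53, CPLX1 at 86.0 ± 1.06, SYT2 at 13.1 ± 0.161, KCNC1 at 2.63 ± 0.0603 and KCNC4 at 0.498 ± 0.0249 (SD, n = 3). All neighbours in that order differed by more than their SDs. PVALB and NEFH reached the 99.5th percentile of the genes tested by this measure and CPLX1 the 97.9th, against the 80.1st for SYT2, the 48.3rd for KCNC1 and the 19.4th for KCNC4. In GFP the order was NEFH at 22.9 ± 0.446, CPLX1 at 4.66 ± 0.149, KCNC1 at 0.505 ± 0.0401, KCNC4 at 0.310 ± 0.0141, SYT2 at 0.140 ± 0.0245 and PVALB at 0.0476 ± 0.0283 CPM per kb. The merged exons of KCNC1 and KCNC4 are long (14.4 and 25 kb), and with the length of the principal isoform (4.29 and 2.95 kb), an alternative chosen after seeing the data, KCNC4 lay above KCNC1 in GFP, at 2.63 against 1.70 CPM per kb. The order in PGC1A was the same with either length.

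Shares within a family were computed for the complexins, neurofilaments and synaptotagmins, and those of the Kv3 family are not reported here. Of the level counted for CPLX1 and CPLX2 together, CPLX1 held 43.7% ± 0.616 in GFP and 95.8% ± 0.157 in PGC1A, as shares of CPM per kb (SD, n = 3). CPLX2 itself fell by 0.66 on the log2 scale (adjusted p = 1.94e-19), and CPLX3 and CPLX4 had 0 to 2 counts per library. CPLX3 shares 99.7% of its exon bases with AC091230.1 on the same strand. How reads there were counted is not known, so its counts do not show its level. CPLX2 was singled out after its values were seen.

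Among 3 neurofilament subunits the share of NEFH went from 10.4% ± 0.199 to 37.8% ± 0.0745. The light subunit NEFL rose by 1.55 (adjusted p = 2.24e-45), from 362 ± 8.15 to 1062 ± 24.9 CPM, and the medium subunit NEFM fell by 0.37 (adjusted p = 1.96e-18), from 496 ± 18.2 to 383 ± 8.0 CPM. The share of NEFM went from 51.5% ± 0.891 to 16.3% ± 0.422. NEFM shares 38.9% of its exon bases with a gene on the opposite strand.

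Of 5 synaptotagmins with a vesicle calcium-sensor role or close relation to one, SYT2 took 0.446% ± 0.0810 of the summed level in GFP and 23.8% ± 0.414 in PGC1A. SYT1, the main sensor of forebrain synapses, went from 74.9% ± 0.293 to 20.8% ± 0.322 of that sum. SYT7, a slower high-affinity sensor, took 54.1% ± 0.634 in PGC1A against 3.54% ± 0.126 in GFP, so SYT2 was not the leading synaptotagmin after PGC-1a.

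**Figure D3:**
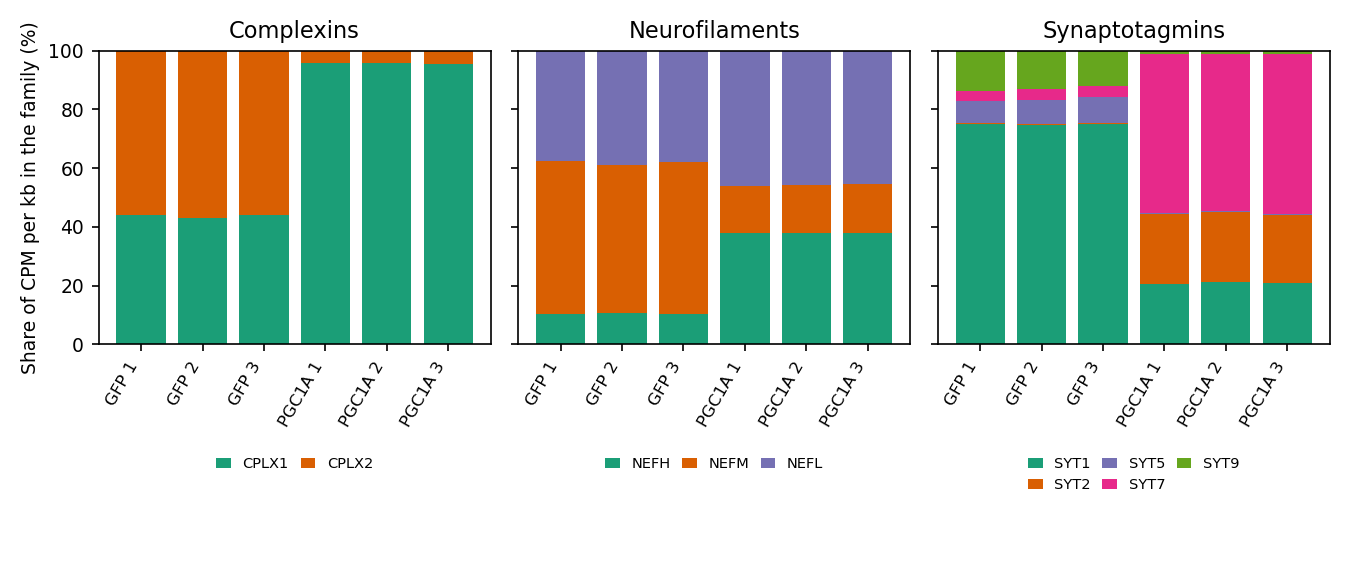
Share of CPM per kb of merged exons held by each gene of 3 families in each library, in percent. CPLX1, NEFH and SYT2 hold larger shares in all 3 PGC1A libraries than in any GFP library.

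By the distance between their 6 log2 CPM values, the coding genes most like PVALB among 14329 tested were MYBPC3 (a myosin-binding protein of the heart, distance 1.98), TFCP2L1 (a transcription factor, 2.98) and PACSIN1 (an endocytic adaptor of neurons, 3.38). MYBPC3 went from 0.186 to 256 CPM. SYT2 was nearest to TUBA4A (an alpha-tubulin, 0.501), KLHDC8A (0.820) and ELOVL7 (a fatty acid elongase, 0.837). CPLX1 was nearest to ETFDH (which passes electrons to ubiquinone, 0.564), ZDHHC23 (a palmitoyltransferase, 0.657) and NDRG2 (0.749). NEFH was nearest to 3 mitochondrial protein genes, SOD2 (superoxide dismutase, 0.277), NNT (transhydrogenase, 0.292) and NDUFV1 (a complex I subunit, 0.350). KCNC1 was nearest to ZNF684 (0.196), FAXDC2 (0.316) and PEX3 (0.316), and KCNC4 to SLC25A10 (0.0741), WDR31 (0.187) and PLPP7 (0.197). The 6 libraries fall in 2 groups, so likeness here means a similar level in each group and nothing more.

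Other genes of the same cells and pathways were counted from lists that were not picked for how they moved, although they were written with earlier results of these data known. They held 125 genes besides the 8, with PPARGC1A among them, and 91 of the 125 were tested. Genes under the filter's cutoff in either group passed through the other group alone, which fixed the direction of any call. The counts of genes below include them. Scaling by total counts shifted the median log2 fold change over the genes tested by −0.33, and upper-quartile scaling by −0.13. With TMM that median was −0.03.

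In a list of 7 genes for the coactivator and its partners, 5 rose and 2 fell (median 0.87). PPARGC1A itself, which the virus carried, is among the 5 and says nothing about the partners. ESRRB rose by 5.98 (0.173 to 11.4 CPM, adjusted p = 1.17e-33) and ESRRA by 2.10 (48.5 to 208 CPM, adjusted p = 1.14e-46). With 3, 9 and 5 counts in GFP, ESRRB passed the filter through PGC1A alone and could only be called higher. ESRRG fell by 0.97 on the log2 scale (154 to 78.9 CPM, adjusted p = 1.13e-32), and NRF1 fell by 0.40 (adjusted p = 4.36e-09; adjusted p = 1 against a 1.5-fold change).

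All 5 genes of GABA synthesis, transport and breakdown rose (median 3.42), under each scaling tried. SLC32A1, which loads GABA into vesicles, rose from 0.324 ± 0.0762 to 3.46 ± 0.303 CPM (log2 fold change 3.42, adjusted p = 3.03e-20). GAD1, which makes GABA, rose from 1.55 ± 0.0857 to 11.1 ± 0.957 CPM (2.84, adjusted p = 2.61e-28). GAD2, the other gene for this enzyme, was at 0.560 ± 0.118 CPM in PGC1A. The GFP counts were 1, 1 and 0 for GAD2 and 11, 8 and 12 for SLC32A1, which was under the cutoff in GFP replicate 2. Both genes thus passed the filter through PGC1A alone and could only be called higher. The median of the list is the value of SLC32A1. ABAT, which degrades GABA, rose by 0.52. Both GAD2 and ABAT were named after their values were seen.

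Transcription factors of interneuron development were mixed. With ERBB4, a receptor of these cells, 5 of 10 tested rose, 3 fell and 2 did not pass (median 0.15), and with total counts 4 rose and 5 fell. LHX6, which specifies parvalbumin and somatostatin interneurons, rose from 0.307 ± 0.104 to 12.5 ± 0.577 CPM (5.37, adjusted p = 2.63e-34). With 12, 8 and 9 counts in GFP, LHX6 passed the filter through PGC1A alone and could only be called higher. SOX6, which acts after LHX6, rose by 3.78 (1.85 to 25.4 CPM, adjusted p = 1.91e-38). SATB1, also downstream of LHX6, fell by 1.17 (adjusted p = 1.18e-28), ERBB4 fell by 0.85 (adjusted p = 5.34e-09) and MAF fell by 0.38 (adjusted p = 0.0182). The call for MAF was lost without GFP replicate 2 (adjusted p = 0.122), without PGC1A replicate 3 (adjusted p = 0.0890) and with DESeq2 (adjusted p = 0.192). NKX2-1, DLX1 and DLX2 were too low to test.

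A list of other potassium channel subunits of fast-spiking cells had 4 of 6 tested genes higher and 2 lower (median 0.37), against 2 and 3 with total counts and 2 and 2 with upper-quartile factors. KCNAB2, a beta subunit, rose by 1.26 (6.07 to 14.6 CPM, adjusted p = 7.24e-21), while KCNAB1 fell by 0.98 (adjusted p = 2.38e-20) and KCNAB3 fell by 0.42 (adjusted p = 4.17e-05). KCNA2 was at 0.59 (adjusted p = 0.0155), a call lost with total counts (adjusted p = 0.276), without PGC1A replicate 1 (0.26, adjusted p = 0.341) or GFP replicate 3 (adjusted p = 0.0852) and with DESeq2 (adjusted p = 0.122).

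Sodium channel genes divided evenly, with 3 of 6 higher and 3 lower (median 0.057, or −0.27 with total counts and −0.07 with upper-quartile factors). SCN1A, the alpha subunit prominent in parvalbumin interneurons, rose from 0.613 ± 0.102 to 4.46 ± 0.375 CPM (2.84, adjusted p = 9.42e-21). SCN8A was at 0.29 (adjusted p = 1.65e-06), and at −0.037 with total counts (adjusted p = 0.509). SCN2B fell by 0.57 (adjusted p = 0.0102, or 0.142 with DESeq2) and SCN3B fell by 0.24 (adjusted p = 3.84e-06). SCN4B was at −0.18 (adjusted p = 0.0195), a call that did not hold with DESeq2-type size factors (adjusted p = 0.0616) or without GFP replicate 1 (adjusted p = 0.0860), PGC1A replicate 1 (adjusted p = 0.0627) or PGC1A replicate 3 (adjusted p = 0.137).

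Most of the remaining release machinery moved the opposite way from SYT2 and CPLX1. Of 14 release genes tested, 3 were higher, 10 lower and 1 did not pass (median −0.99), against 2 and 12 with total counts. SYT7 rose from 6.62 ± 0.347 to 177 ± 7.19 CPM (4.73, adjusted p = 3.24e-54) and the vesicle SNARE gene VAMP2 rose by 1.46 (adjusted p = 5.91e-37). SNAP25 was at 0.090 (adjusted p = 0.0228), and at −0.24 with total counts (adjusted p = 1.04e-07) and −0.038 with upper-quartile factors (adjusted p = 0.328). Its call was also lost without GFP replicate 1 (adjusted p = 0.0945), GFP replicate 3 (adjusted p = 0.0942) or PGC1A replicate 2 (adjusted p = 0.0721). SYT5 fell by 4.20 (adjusted p = 2.93e-32), SYT9 fell by 2.79 (adjusted p = 3.11e-32) and the active-zone gene RIMS1 fell by 1.82 (adjusted p = 2.07e-20). VAMP1, the SNARE gene that fast-spiking cells favour, was at −0.12 (adjusted p = 0.111) and was singled out after its values were seen.

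Other genes of neuronal calcium-binding proteins were mixed. Of 8 tested, 3 rose and 5 fell (median −0.93), against 40.9% and 42.1% of all genes tested. CALB2, calretinin, rose by 3.48 (0.173 to 2.00 CPM, adjusted p = 3.38e-16) and VSNL1 by 2.20 (adjusted p = 2.79e-29). With 4, 5 and 8 counts in GFP, CALB2 passed the filter through PGC1A alone and could only be called higher. CALB1, calbindin, fell by 2.88 (5.18 to 0.700 CPM, adjusted p = 6.73e-22), NCALD fell by 2.25 (adjusted p = 1.48e-29) and SCGN, secretagogin, fell by 1.03 (adjusted p = 2.56e-12). OCM, the closest relative of PVALB, had 14 counts over GFP and 0 over PGC1A and was not tested.

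Of 5 other intermediate filament genes, 2 rose and 3 fell (median −0.37). Besides NEFL and NEFM, INA rose by 0.54 (adjusted p = 1.25e-23; adjusted p = 1 against a 1.5-fold change) and VIM fell by 1.52 (adjusted p = 1.21e-44). Of 5 tested genes of the LGI family and its ADAM receptors, 2 were higher and 3 lower (median −0.42), against 1 and 4 with total counts. LGI3 rose by 3.65 (0.145 to 1.87 CPM, adjusted p = 5.24e-16), ADAM23 fell by 1.21 (adjusted p = 6.12e-36) and ADAM11 fell by 0.42 (adjusted p = 1.83e-04). With 4, 6 and 4 counts in GFP, LGI3 passed the filter through PGC1A alone and could only be called higher. ADAM22 was at 0.083 (adjusted p = 0.00180), and at −0.25 with total counts (adjusted p = 9.11e-14) and −0.044 with upper-quartile factors (adjusted p = 0.0809). Its call was lost without GFP replicate 3 (adjusted p = 0.0547).

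**Figure D4:**
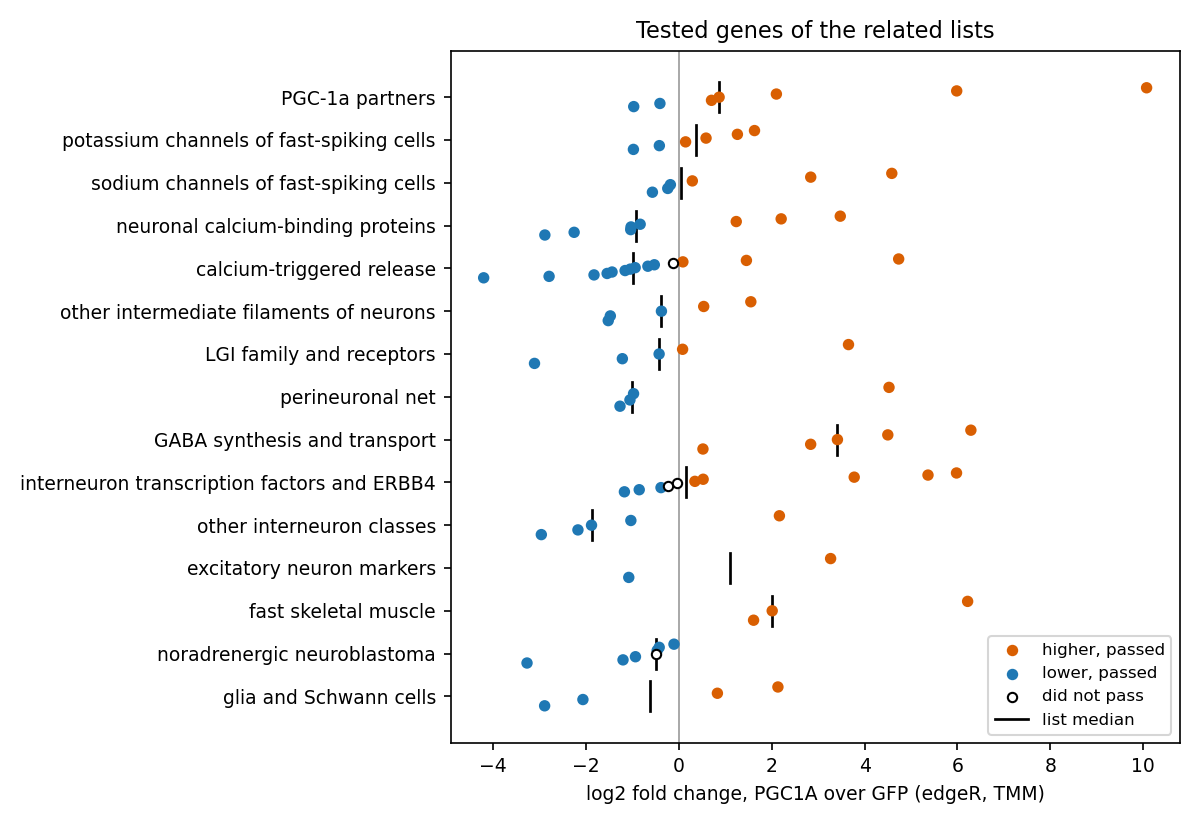
Log2 fold change (PGC1A over GFP, edgeR with TMM) of each tested gene of the related lists, orange where higher and blue where lower at an adjusted p of 0.05, open where the test was not passed, with the median of each list as a bar. All 5 GABA genes lie to the right of 0, whereas the release, calcium-binding and noradrenergic lists have medians below 0.

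Markers were used to see what kind of cell carried these transcripts. The summed level of 8 noradrenergic neuroblastoma markers was 780 to 788 CPM in the GFP libraries and 439 to 450 CPM in the PGC1A libraries. For the 5 GABA genes the sum was 37.6 to 38.6 and 94.5 to 98.3 CPM, of which ABAT alone, which is not restricted to interneurons, held a mean of 35.9 and 51.6 CPM. The interneuron markers set for this purpose were GAD1, GAD2, SLC32A1, LHX6, DLX1, DLX2, DLX5 and DLX6. DLX5 went from 3.91 to 3.36 CPM and did not pass (−0.23, adjusted p = 0.0828). DLX6 rose from 8.20 to 11.8 CPM (0.53, adjusted p = 1.06e-08), and DLX1 and DLX2 were too low to test. Of 7 noradrenergic markers tested, 6 fell and none rose (median −0.48). DBH, which makes noradrenaline, fell by 3.26 on the log2 scale (adjusted p = 5.40e-45), and the transcription factor gene HAND2 fell by 0.93 (adjusted p = 5.17e-34). TH, the defining enzyme of catecholamine synthesis, had 0 counts in GFP and 5 to 9 per library in PGC1A.

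PVALB is also a gene of fast skeletal muscle, and of 12 muscle markers 3 were tested and rose. CKM, muscle creatine kinase, rose by 6.22 (0.101 to 8.0 CPM, adjusted p = 2.57e-31) and ATP2A1, the calcium pump of fast fibres, by 1.61 (4.80 to 14.6 CPM, adjusted p = 4.54e-23). The third was TNNC2, at 1.23 ± 0.350 CPM in PGC1A. In GFP, CKM had 2, 4 and 4 counts and TNNC2 had 12, 8 and 9. Both passed the filter through PGC1A alone and could only be called higher. The defining fast myosin genes MYH1, MYH2 and MYH4 had 0 to 2 counts per library, MYOG had 0 to 2 and MYOD1 had 0 to 7. TNNI2 had 8 counts over GFP and 0 over PGC1A, TNNT3 4 and 0, ACTN3 14 and 16 and MYLPF 8 and 7. None of these genes passed the filter. The muscle list summed to 5.22 to 6.31 CPM in GFP and 23.4 to 25.9 CPM in PGC1A. The part of these markers in the level of PVALB was not tested.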

How the data were processed

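Poly(A) RNA of SH-SY5Y cells was sequenced in 6 libraries (GFP and PGC1A, 3 each, placed by their titles). The deposited values are raw read counts per Ensembl gene, and GRCh38, HTSeq 0.10.0, STAR 2.6.0c, DESeq2 1.20.0 and DRAGEN appear, without roles, in the submitters' processing notes. The preparation kept strand, per the labels' protocols; neither the annotation release nor how strand was counted is given in the sources used here, so reads of genes on opposite strands cannot be assumed separate. The 5 summary lines at the end of the table held 28.8% to 31.0% of its reads and stayed out of library sizes and tests. Of 58096 IDs, 57492 matched GENCODE 29, the source of symbols, coordinates (counted from 1) and exon lengths; isoform lengths are those of its APPRIS principal transcripts.

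edgeR 4.0.16 (R 4.3.3) was run on all genes with TMM factors, filterByExpr (minimum count 10, total 15) and a robust quasi-likelihood fit with group as the only term; Benjamini-Hochberg adjustment ran over 19343 genes, with two-sided tests. Each fold change divides PGC1A by GFP, and its SE was taken from the F statistic. The procedure was tested on simulated data with 200 changed genes. Far more genes were called in the real data, so the simulation did not check the scaling or the calls under so broad a change. The members and lists were chosen with earlier results of these data known. Named besides the members and PPARGC1A, ESRRA, ESRRB and ESRRG were up to 3 called genes of each list in each direction, at a mean of at least 1 CPM, and the 3 coding genes nearest to each member; some genes this rule names are not reported here. Replicates of a group differed by more than counting noise (chi-square per degree of freedom 1.23 to 2.60). Alternatives were other scalings, filters and tests, a replicate block and each library left out.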

Additional observations from a re-analysis of the deposited data

How the results depend on the processing

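The direction of PVALB, SYT2, CPLX1, NEFH, KCNC1 and KCNC4 was the same under every alternative run. With total counts their log2 fold changes moved to 11.74, 6.22, 3.88, 2.82, 2.06 and 0.35. With upper-quartile factors CPLX1, NEFH, KCNC1 and KCNC4 moved to 4.08, 3.02, 2.26 and 0.56. With DESeq2-type size factors CPLX1 was at 4.24 and NEFH at 3.18, and the DESeq2 Wald test gave 3.18 for NEFH. Leaving out 1 library gave 11.78 to 12.63 for PVALB (highest without GFP replicate 3, which holds 3 of its 5 GFP counts), 6.42 to 6.69 for SYT2, 4.17 to 4.23 for CPLX1, 3.12 to 3.17 for NEFH, 2.34 to 2.44 for KCNC1 and 0.65 to 0.73 for KCNC4. LGI2 and KCNC2 gave no fitted value with the main filter and were not followed under the alternatives.

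Against a 1.5-fold change 9241 genes were called in place of 16057, and without any 1 library 15902 to 16072. Genes of the related lists called higher (PPARGC1A included) and lower numbered 40 and 47, and 38 to 42 and 46 to 49 without 1 library. Of 53 named related genes, SCN8A (−0.037), SNAP25 (−0.24) and ADAM22 (−0.25) reversed with total counts, and SNAP25 (−0.038) and ADAM22 (−0.044) with upper-quartile factors; a further 31 of 795 values lost their call. The causes were not tested.

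Deviations from the group means of same-numbered libraries correlated at −0.0114, 0.00629 and 0.0109 across genes. These values gave no sign that the replicate numbers pair the samples, but with so few libraries they cannot exclude it. With the replicate block 16071 genes were called. Depth limits LGI2 and KCNC2, and the fold of PVALB, whose GFP counts are at the floor.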

Other observations

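Genes of the perineuronal net, the matrix coat of parvalbumin interneurons, did not move together. Of 4 tested, 1 rose and 3 fell (median −1.01 on the log2 scale, PGC1A over GFP). BCAN, brevican, rose from 4.75 ± 0.513 to 109 ± 3.64 CPM (SD, n = 3; log2 fold change 4.53, edgeR adjusted p = 9.17e-51). TNR fell by 1.26 (adjusted p = 8.08e-15), NCAN fell by 1.05 (adjusted p = 8.00e-20) and VCAN fell by 0.97 (adjusted p = 1.41e-04). ACAN, aggrecan, the core component, had 0, 0 and 2 counts in GFP and 13, 9 and 11 in PGC1A and did not pass the filter, nor did HAPLN1 and HAPLN4. HAPLN4 shares 96.6% of its exon bases with other genes on the same strand, and how reads there were counted is not known.

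Markers of other interneuron classes mostly fell, with 4 of 5 tested lower and 1 higher (median −1.88). The neuropeptide genes NPY and VIP fell by 2.17 and 1.03 (adjusted p = 3.64e-43 and 3.78e-23), RELN, reelin, fell by 1.88 (adjusted p = 1.92e-38), and NOS1 rose by 2.17 (0.690 to 3.17 CPM, adjusted p = 2.07e-15). SST, the marker of the other main class that LHX6 specifies, had 0 counts in all 6 libraries. Of 2 tested markers of excitatory neurons 1 rose and 1 fell, or 1 rose and 0 fell with DESeq2. SLC17A7, the vesicular glutamate transporter of cortex, rose by 3.27 (0.694 to 6.82 CPM, adjusted p = 6.57e-25). Of 4 tested glial and Schwann cell markers 2 rose and 2 fell (median −0.61), or 1 and 2 with total counts, and SOX10, the defining factor of Schwann cells, had 0 counts in all 6 libraries.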
